A study of Mus musculus with 26 samples.

Results

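Transcripts of 10 claudins (Cldn1, Cldn2, Cldn3, Cldn4, Cldn7, Cldn8, Cldn12, Cldn15, Cldn18 and Cldn23) were followed in mouse intestinal organoids, out of 55385 gene identifiers counted. The members were picked by name, with earlier results of these data known. They were matched by their Ensembl identifiers, and all 10 were found. Organoids are small epithelial cultures; these were grown in Matrigel from crypts of C57BL/6 mice, and every group received EGF, Noggin, R-spondin, the Wnt pathway activator CHIR-99021 and the kinase inhibitor Y-27632. At days 1 and 3 they had been given arachidonic acid (AA, 25 µM), a polyunsaturated fatty acid that cells can turn into prostaglandins, prostaglandin E2 (PGE2, 50 nM) or vehicle, with n = 3 libraries per group. At day 6 there were AA and vehicle groups, with n = 4 libraries each. The series' design names a dimethyl PGE2 analogue where the treatment protocol names PGE2, and "PGE2" here stands for whichever was used. The study asked how AA and PGE2 alter these cultures over time, and the comparisons below ask it of the claudins.

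Claudins are membrane proteins that form the strands of tight junctions, the seals between neighbouring epithelial cells. Some mainly tighten the seal, among them claudins 1, 3, 4, 7 and 8, while claudin-2 and claudin-15 form channels that let sodium and other small cations pass between cells. In the small intestine, claudin-2 is a crypt protein, and claudin-15 supplies the sodium on which nutrient uptake depends. Claudin-4 is also a receptor of the Clostridium perfringens enterotoxin, and claudin-18 is best known from stomach and lung epithelium.

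Promoter sequences of 3 members are given: Cldn4 and Cldn18, with the largest fold changes at day 1, and Cldn2, the crypt channel former. They are RefSeq windows on build GRCm38.p6, from 250 bases before the transcription start to 50 bases after it, read 5′ to 3′ on the gene's strand. Capitals mark every match on either strand to a motif searched: the cAMP response element TGACGTCA and its core TGACG, the AP-1 site TGANTCA, the TEAD core GGAATG, the CDX2 core TTTATG and the TATA box TATAAA. The core lies inside the full response element, so those matches overlap.
Cldn4, chr5:134946885-134947184, minus strand: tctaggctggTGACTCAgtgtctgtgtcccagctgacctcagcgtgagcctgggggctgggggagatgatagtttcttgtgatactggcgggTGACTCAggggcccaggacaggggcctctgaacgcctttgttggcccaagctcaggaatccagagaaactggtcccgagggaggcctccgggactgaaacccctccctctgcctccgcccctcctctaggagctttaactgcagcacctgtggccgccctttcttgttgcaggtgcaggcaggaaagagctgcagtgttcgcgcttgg
Cldn2, chrX:139800558-139800857, plus strand: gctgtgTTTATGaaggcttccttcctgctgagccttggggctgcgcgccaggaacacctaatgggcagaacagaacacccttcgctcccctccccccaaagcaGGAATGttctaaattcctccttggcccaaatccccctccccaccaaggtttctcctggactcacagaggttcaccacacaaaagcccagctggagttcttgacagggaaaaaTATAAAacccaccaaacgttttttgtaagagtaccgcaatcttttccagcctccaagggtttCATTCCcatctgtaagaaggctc
Cldn18, chr9:99717218-99717517, minus strand: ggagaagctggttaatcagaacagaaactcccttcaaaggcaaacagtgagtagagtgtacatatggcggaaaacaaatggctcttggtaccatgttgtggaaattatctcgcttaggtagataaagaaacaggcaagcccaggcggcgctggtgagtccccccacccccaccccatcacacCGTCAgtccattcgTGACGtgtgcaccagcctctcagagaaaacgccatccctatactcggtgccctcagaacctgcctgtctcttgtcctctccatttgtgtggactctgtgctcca
The Cldn4 window holds 2 AP-1 matches, 240 and 158 bases upstream of the start. The Cldn2 window holds a CDX2 core 244 bases upstream, a TATA box 35 bases upstream and TEAD cores 147 bases upstream and 27 bases downstream. The Cldn18 window printed holds the core TGACG 68 and 54 bases upstream, and the other Cldn18 window of the table, chr9:99710014-99710313, holds no match to any of these motifs. Of 32851 windows in the table, AP-1 matches were in 7.81%, TGACG in 20.8%, the full response element in 1.79%, the TEAD core in 14.7%, the CDX2 core in 11.9% and the TATA box in 13.6%. The table held 12 windows of 8 members, and Cldn8 and Cldn23 are named only. A full response element was matched 38 bases upstream in 1 of the Cldn7 windows, and a TEAD core 70 bases upstream in the other. The Cldn15 window held an AP-1 match 214 bases upstream and TEAD cores 237 bases and 1 base upstream. The Cldn3 window held the core TGACG 91 bases upstream. Such matches describe the letters only.

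The day 6 libraries were the deeper ones, at 1.61e+07 to 1.98e+07 counts, against 1.01e+07 to 1.46e+07 counts in those of days 1 and 3. Levels are CPM, counts scaled to a common library total, after TMM scaling of library sizes, and tests are edgeR's quasi-likelihood test with Benjamini-Hochberg adjustment over all genes, called at an adjusted p under 0.05. Whether replicates came from separate cultures or mice is not stated, so p-values measure the spread between libraries, which may be technical. Mitochondrial ribosomal RNA took 0.00305% to 0.266% of counts at day 6, against 6.74% to 10.3% on the earlier days, so day 6 is set against earlier days only as a response to AA. The epithelial label was checked with 7 markers (Epcam, Cdh1, Vil1, Krt8, Krt18, Krt19, Cdx2), each above 1 CPM on average in every group. Summed over a library, fibroblast and smooth muscle markers reached at most 3.33 CPM and endothelial markers at most 3.40 CPM, and the endothelial claudin Cldn5 was at 0 in all libraries. Immune markers reached at most 30.7 CPM, and most of that was Kit and Cd14; Ptprc, the pan-leukocyte marker, averaged at most 0.195 CPM in any group. In bulk RNA, fewer cells of a type and less RNA per cell cannot be told apart.

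Per kilobase of exon, which allows genes to be compared, Cldn7 led in every group except PGE2 at day 1, where Cldn4 stood above it at 222 against 204 CPM per kb. Cldn7, a claudin of the lateral membrane whose loss inflames the mouse gut, had 195 CPM per kb in AA, 204 in PGE2 and 195 in vehicle organoids at day 1. In vehicle organoids at day 1 the order below Cldn7 was Cldn3 (107 CPM per kb), Cldn2 (102), Cldn4 (56.6), Cldn15 (54.4), Cldn12 (16.5), Cldn23 (3.04), Cldn8 (0.539), Cldn18 (0.359) and Cldn1 (0.00538). Neighbours in that order overlapped between libraries for Cldn3 with Cldn2, Cldn4 with Cldn15 and Cldn8 with Cldn18. The libraries of AA at day 1 put Cldn4 in second place at 165 CPM per kb, above Cldn3 at 151 and Cldn2 at 106, with no overlap between these neighbours. At day 6, when tables were scaled separately, Cldn15 held the third place in both groups, at 106 CPM per kb in AA and 98.0 in vehicle organoids. The lead of Cldn7 over Cldn3 was not clear in vehicle organoids at day 6, where their libraries overlapped (means of 183 and 149 CPM per kb).

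The summed claudin level was higher in treated organoids at days 1 and 3. It averaged 686 ± 5.10 CPM per kb in AA, 831 ± 7.68 in PGE2 and 535 ± 20.6 in vehicle organoids at day 1 (SD, n = 3 each). At day 3 it was 640 ± 42.2 in AA, 821 ± 31.3 in PGE2 and 545 ± 35.1 in vehicle organoids, and at day 6 it was 553 ± 16.9 in AA and 514 ± 44.6 in vehicle organoids (n = 4 each). Treated and vehicle libraries did not overlap at days 1 and 3 and did overlap at day 6. The sum of the 7 epithelial markers was also higher at days 1 and 3: at day 1 it was 10100 to 10500 CPM in AA, 12700 to 13300 in PGE2 and 6480 to 7310 in vehicle libraries, at day 3 it was 7530 to 8680 CPM in AA, 9750 to 10000 in PGE2 and 5190 to 5720 in vehicle libraries, and at day 6 it was 4500 to 4870 in AA and 4140 to 4820 in vehicle libraries. Krt8 and Krt19 made up most of that sum at days 1 and 3. At day 1, 5 of the 7 markers rose and 1 fell with AA, and 5 rose and 2 fell with PGE2; Cdx2 averaged 95.8 CPM in AA, 96.5 CPM in PGE2 and 119 CPM in vehicle organoids and fell with both, and Epcam averaged 566 CPM in AA, 560 CPM in PGE2 and 612 CPM in vehicle organoids and fell with PGE2. At day 3, 5 of 7 rose and none was called lower with either agent, and at day 6, 1 rose with AA. The part of these markers in the claudin result was not tested.

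**Figure D1:**
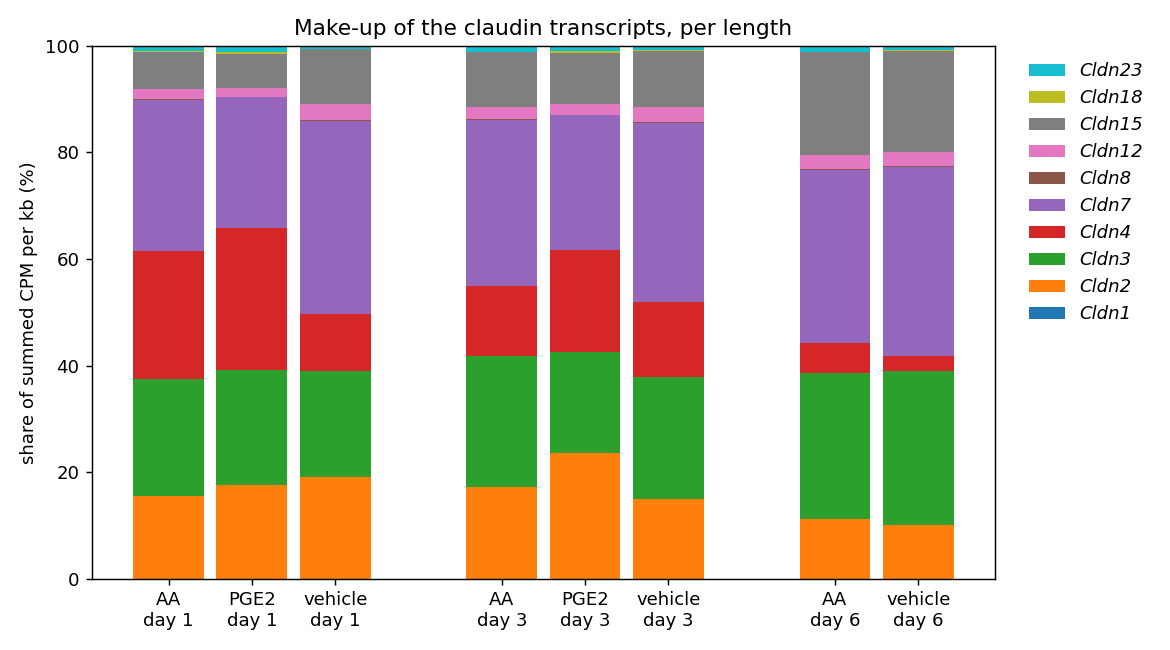
Share of each claudin in the summed claudin level (CPM per kb of exon, percent, mean over libraries) in each treatment and day. The red band, Cldn4, takes 24.0% in AA, 26.8% in PGE2 and 10.6% in vehicle organoids at day 1, and the grey band, Cldn15, takes 19.2% in AA and 19.1% in vehicle organoids at day 6.

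The make-up differed between treatments in several members. The share of Cldn4 was 24.0 ± 0.552% in AA, 26.8 ± 0.440% in PGE2 and 10.6 ± 0.240% in vehicle organoids at day 1. At day 3 it was 13.3 ± 0.923% in AA, 19.1 ± 0.659% in PGE2 and 14.2 ± 0.832% in vehicle organoids. The share of Cldn7 ran the other way at day 1, at 28.4% in AA, 24.5% in PGE2 and 36.4% in vehicle organoids, while its own level hardly differed. Cldn2 took 15.5% in AA, 17.5% in PGE2 and 19.1% in vehicle organoids at day 1, although its level per kb was not lower with treatment, and 17.2% in AA, 23.6% in PGE2 and 15.0% in vehicle organoids at day 3.

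Of the 10 claudins, 9 passed the filter on low counts at days 1 and 3 and 8 at day 6; Cldn1 failed throughout, and Cldn18 failed at day 6. With AA, 4 of 9 rose and 2 fell at day 1, when 19.5% of all genes rose and 22.2% fell. At day 3, 5 of 9 rose with AA and 4 were not called, against 21.2% of all genes rising and 20.1% falling. At day 6, 3 of 8 rose with AA and 5 were not called, and 15.3% of all genes rose and 15.5% fell. With PGE2, 5 of 9 rose and 1 fell at day 1, when 27.0% of all genes rose and 28.9% fell, and at day 3, 7 of 9 rose and 2 were not called, when 28.9% rose and 30.1% fell. The median log2 fold change of the claudins was 0.06, 0.18 and 0.15 with AA at days 1, 3 and 6, and 0.51 and 0.43 with PGE2 at days 1 and 3, beside -0.03, -0.03, -0.01, -0.02 and -0.04 over all genes. On each of days 1 and 3 the AA and PGE2 comparisons share their vehicle libraries. Cldn23 rose in all 5 of these comparisons, Cldn18 in all 4 in which it was tested, and Cldn2, Cldn3 and Cldn4 in 4 of 5 each.

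**Figure D2:**
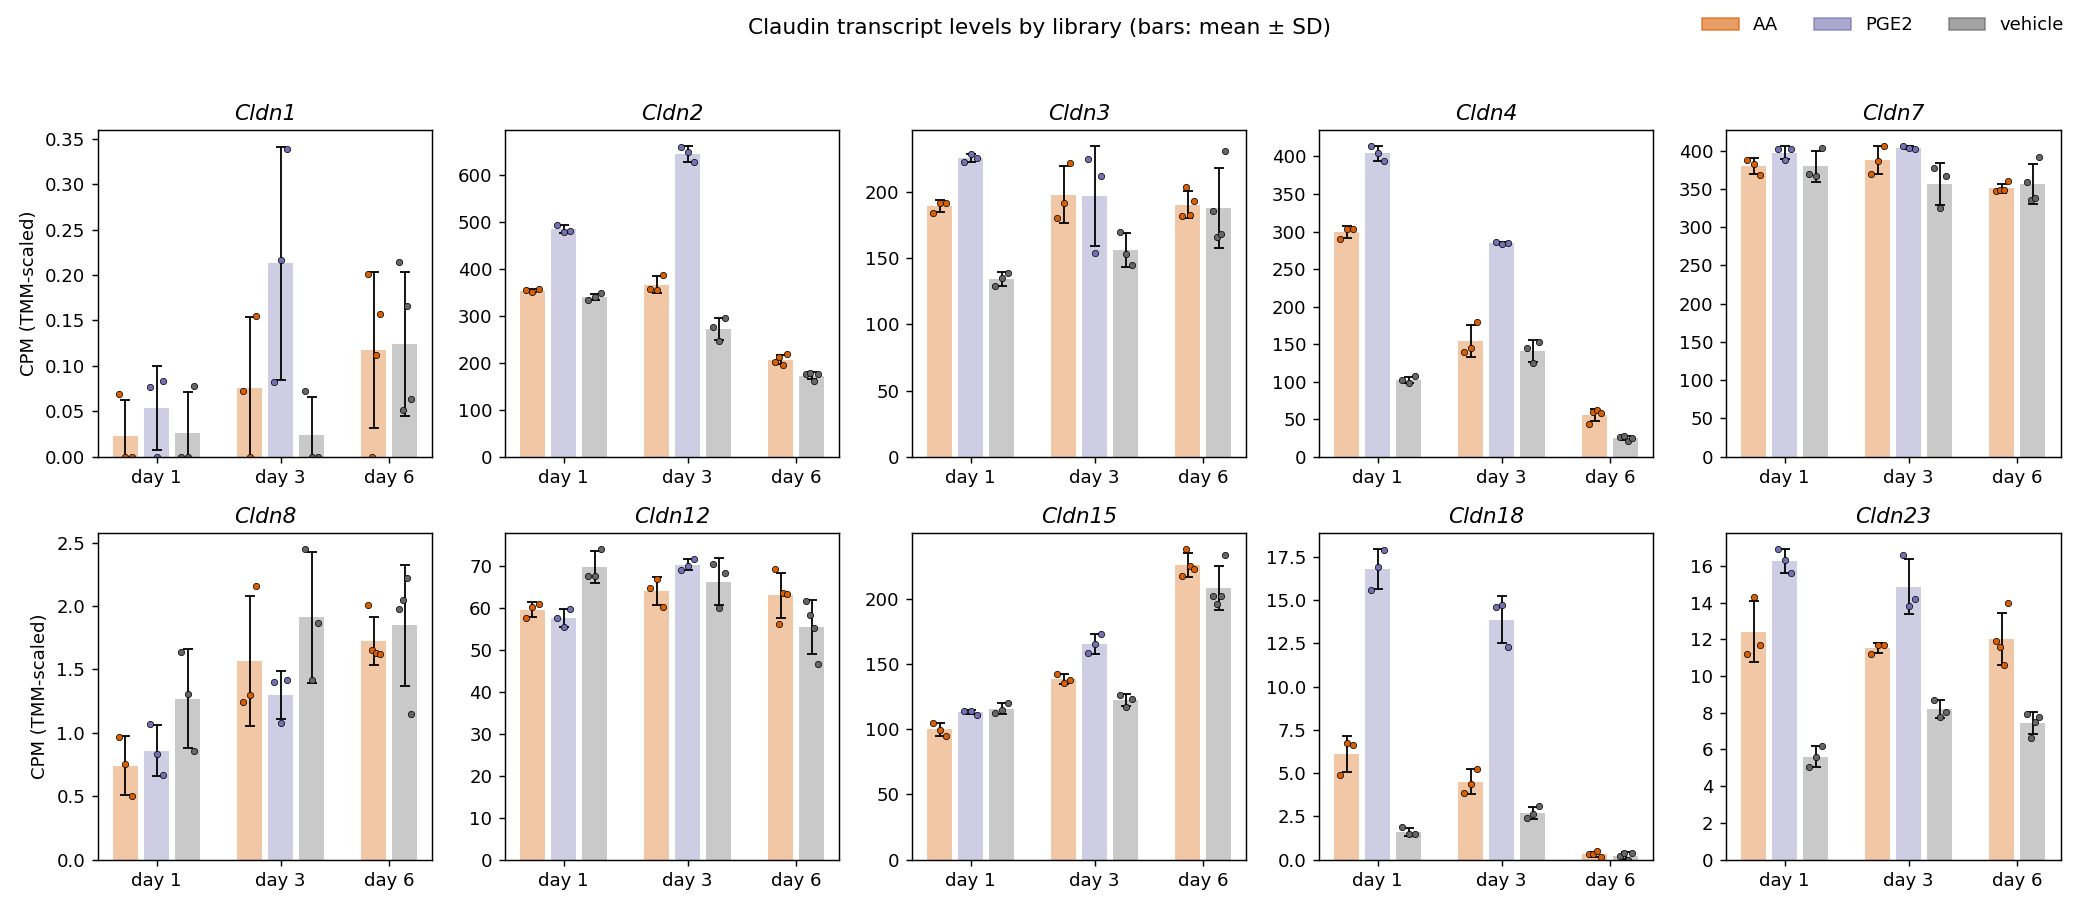
CPM of each claudin by treatment and day; points are libraries, bars the mean and error bars the SD (n = 3 per group at days 1 and 3, n = 4 at day 6), on a separate linear axis per gene. Cldn4, Cldn18 and Cldn23 stand highest with PGE2 and above vehicle with AA at day 1, while Cldn7 has 380 CPM in AA, 397 CPM in PGE2 and 380 CPM in vehicle organoids.

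Cldn4 (ENSMUSG00000047501.3) showed the largest rise among the abundant members at days 1 and 6. At day 3 Cldn2 rose more, with log2 fold changes of 0.43 with AA and 1.24 with PGE2. At day 1 Cldn4 had 290, 303 and 304 CPM in AA libraries, 414, 404 and 394 CPM in PGE2 libraries, and 102, 98.6 and 107 CPM in vehicle libraries. All AA libraries lay above all vehicle libraries, and all PGE2 libraries above all AA libraries. The rise was 2.91-fold with AA (log2 fold change 1.54 ± 0.07, SE; adjusted p = 2.95e-14) and 3.93-fold with PGE2 (1.98 ± 0.07; adjusted p = 8.15e-17). At day 3 it had 140, 145 and 179 CPM in AA libraries, 286, 283 and 285 CPM in PGE2 libraries, and 145, 125 and 153 CPM in vehicle libraries. PGE2 libraries again stood apart (log2 fold change 1.01 ± 0.07, adjusted p = 1.85e-11), but AA and vehicle libraries overlapped and the difference was not called (0.14 ± 0.07, 95% interval -0.01 to 0.29, adjusted p = 0.138). That value was called under 3 alternatives, at 0.22 without vehicle day 3 replicate 3, 0.21 without AA day 3 replicate 1 and 0.15 with no filter on low counts. At day 6 Cldn4 had 43.9, 59.8, 62.0 and 57.9 CPM in AA libraries and 26.6, 27.6, 21.2 and 24.9 CPM in vehicle libraries. Every AA library was above every vehicle library, a 2.23-fold rise (log2 fold change 1.15 ± 0.11, adjusted p = 1.93e-05).

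Cldn3 (ENSMUSG00000070473.4), which lies next to Cldn4 on chromosome 5 in RefSeq's annotation, rose less. Its day 1 levels were 184, 192 and 192 CPM in AA libraries, 223, 229 and 226 CPM in PGE2 libraries, and 129, 135 and 139 CPM in vehicle libraries, with no overlap between any of the groups. The log2 fold change was 0.50 ± 0.11 with AA (adjusted p = 0.00286) and 0.75 ± 0.11 with PGE2 (adjusted p = 5.81e-05). At day 3 its libraries spread more, with 180, 192 and 222 CPM in AA, 225, 154 and 212 CPM in PGE2, and 170, 153 and 145 CPM in vehicle organoids. Both rises were called at 0.34 ± 0.11 (adjusted p = 0.0280 with AA and 0.0208 with PGE2), although 1 PGE2 library lay within the vehicle range. The day 3 calls were lost without vehicle replicate 2 (0.33 with AA and 0.32 with PGE2) or 3 (0.31 with AA and 0.27 with PGE2) and with no filter on low counts (0.36 with AA and 0.30 with PGE2). The AA call was also lost without AA replicate 3 (0.26), and the PGE2 call without PGE2 replicate 1 or 3 (0.23 and 0.28) and with only the groups compared in the fit (0.35, adjusted p = 0.111). Cldn3 at day 6 had 182 to 204 CPM in AA libraries and 166 to 231 CPM in vehicle libraries, which overlapped (log2 fold change 0.02, 95% interval -0.18 to 0.22). Cldn3 shares 40 exon bases with Wbscr25, and no strand setting of the counting is given in the sources used here, so a few of its reads may belong to that gene.

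Cldn7 (ENSMUSG00000018569.12) had the narrowest span of the abundant sealing claudins. On day 1 there were 388, 383 and 368 CPM in AA libraries, 402, 388 and 402 CPM in PGE2 libraries, and 369, 367 and 403 CPM in vehicle libraries, which overlapped throughout. The log2 fold changes were 0.00 with AA (95% interval -0.11 to 0.11) and 0.07 with PGE2 (-0.04 to 0.17). Cldn7 at day 3 had 370, 386 and 406 CPM in AA libraries, 406, 403 and 402 CPM in PGE2 libraries, and 377, 325 and 367 CPM in vehicle libraries. The rise with PGE2 was called at 0.18 ± 0.05 (adjusted p = 0.00386), a 1.13-fold difference, and all PGE2 libraries lay above all vehicle libraries. With AA the value of 0.12 ± 0.05 was not called (adjusted p = 0.0660), though it was under 6 alternatives. Cldn7 at day 6 was 347 to 360 CPM in AA and 336 to 392 CPM in vehicle libraries (log2 fold change -0.02, 95% interval -0.15 to 0.11).

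The remaining sealing claudins were scarce. Cldn8 (ENSMUSG00000050520.4), a claudin of the distal colon and kidney, had 7 to 40 counts per library. On day 1 there were 0.967, 0.753 and 0.504 CPM in AA libraries, 1.07, 0.834 and 0.669 CPM in PGE2 libraries, and 1.64, 1.31 and 0.859 CPM in vehicle libraries, with overlap. None of its comparisons with vehicle passed the test; the log2 fold changes were -0.77 (95% interval -1.49 to -0.06) with AA and -0.56 (-1.28 to 0.16) with PGE2 at day 1, and -0.30 (-0.90 to 0.30) and -0.57 (-1.18 to 0.03) at day 3. At day 6 it was -0.11 with AA (-0.55 to 0.34). Leaving out 1 library gave a call in 2 of these comparisons: Cldn8 was called lower with AA at day 1 without vehicle replicate 3 (-0.98, adjusted p = 0.0353) and lower with PGE2 at day 3 without vehicle replicate 2 (-0.75, adjusted p = 0.032). Cldn1 (ENSMUSG00000022512.3), the main claudin of the epidermal barrier, had 0 to 5 counts per library and was not tested; its highest level was 0.339 CPM, in a PGE2 library at day 3.

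Among the channel-forming claudins, Cldn2 (ENSMUSG00000047230.6) stood higher with PGE2 on both days. At day 1 it had 354, 350 and 356 CPM in AA libraries, 493, 478 and 479 CPM in PGE2 libraries, and 334, 340 and 347 CPM in vehicle libraries. The rise with PGE2 was 1.42-fold (log2 fold change 0.51 ± 0.05, adjusted p = 6.34e-10), while AA gave 0.06 ± 0.05 (95% interval -0.05 to 0.16, adjusted p = 0.414) although its libraries all lay just above vehicle. Cldn2 at day 3 had 357, 354 and 387 CPM in AA libraries, 659, 647 and 626 CPM in PGE2 libraries, and 275, 247 and 294 CPM in vehicle libraries. The 3 groups were fully apart, with PGE2 2.37-fold above vehicle (1.24 ± 0.05, adjusted p = 6.6e-19) and AA 1.35-fold above it (0.43 ± 0.05, adjusted p = 5.23e-08). Cldn2 at day 6 had 202, 211, 195 and 218 CPM in AA libraries and 176, 178, 161 and 175 CPM in vehicle libraries. AA libraries were again all higher (0.26 ± 0.06, adjusted p = 0.00494).

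Cldn15 (ENSMUSG00000001739.14) differed in direction between days with AA. Its day 1 levels were 105, 99.7 and 94.9 CPM in AA libraries, 114, 114 and 111 CPM in PGE2 libraries, and 112, 115 and 120 CPM in vehicle libraries. It fell with AA (log2 fold change -0.21 ± 0.05, adjusted p = 0.000744), with every AA library below every vehicle library, and was not called with PGE2 (-0.03, 95% interval -0.13 to 0.07). Cldn15 at day 3 had 142, 135 and 138 CPM in AA libraries, 158, 165 and 173 CPM in PGE2 libraries, and 126, 117 and 123 CPM in vehicle libraries. It rose with AA (0.18 ± 0.05, adjusted p = 0.00301) and with PGE2 (0.43 ± 0.05, adjusted p = 3.41e-09), and the groups did not overlap. The AA rise was not called when libraries were scaled by total counts (0.11, adjusted p = 0.0814). Cldn15 at day 6 had 217, 238, 225 and 223 CPM in AA libraries and 202, 196, 202 and 233 CPM in vehicle libraries. The day 6 difference was not called (0.12 ± 0.06, adjusted p = 0.176) and was without vehicle replicate 4, the library at 233 CPM (0.18, adjusted p = 0.00723).

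Cldn18 (ENSMUSG00000032473.13) had the largest fold changes of the family at a low level. On day 1 there were 4.90, 6.77 and 6.62 CPM in AA libraries, 15.6, 16.9 and 17.9 CPM in PGE2 libraries, and 1.86, 1.46 and 1.48 CPM in vehicle libraries. No group overlapped another, and it rose 3.77-fold with AA (log2 fold change 1.91 ± 0.19, adjusted p = 1.09e-09) and 10.4-fold with PGE2 (3.38 ± 0.16, adjusted p = 2.17e-17). Cldn18 at day 3 had 3.86, 4.39 and 5.26 CPM in AA libraries, 14.6, 14.7 and 12.3 CPM in PGE2 libraries, and 2.38, 2.65 and 3.09 CPM in vehicle libraries. The groups were again apart, with rises of 0.74 ± 0.19 with AA (adjusted p = 0.00194) and 2.36 ± 0.15 with PGE2 (adjusted p = 3.17e-14). Cldn18 at day 6 had 6, 6, 9 and 3 counts in AA libraries and 4, 7, 0 and 6 counts in vehicle libraries, too few to test.

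Some other stomach genes were also higher in treated organoids. Of 8 tested markers of a gastric list, 5 rose and 1 fell with PGE2 at day 3, when 28.9% of all genes rose and 30.1% fell, and 3 rose and 2 fell at day 1. On average, 8 genes of the list had at least 1 CPM in PGE2 organoids at day 3, against 3 in vehicle organoids. Genes such as Gkn1 passed the filter on low counts only through treated libraries, which favoured a rise. The counts here are therefore a description and no measure beside the shares of all genes. The list holds 12 genes and leaves Cldn18 out, 11 of them were in the tables, and their summed level at day 3 was 7.20 to 9.51 CPM in AA, 65.6 to 69.7 CPM in PGE2 and 7.42 to 9.46 CPM in vehicle libraries. At day 1 it was 4.10 to 4.29 CPM in AA, 11.1 to 13.6 CPM in PGE2 and 4.57 to 4.77 CPM in vehicle libraries. Tff1, a trefoil peptide of the gastric pit, averaged 32.6 CPM and Gkn1, a gastrokine, 18.9 CPM in PGE2 organoids at day 3, against 0.469 and 0.0793 CPM in vehicle organoids. Gkn3 went the other way, at 1.21 CPM in PGE2 and 2.76 CPM in vehicle organoids at day 3. Sox2, the transcription factor of stomach epithelium, and Atp4b, a subunit of the parietal cell proton pump, were at 0 in every group. With AA the gastric sum was not higher than in vehicle libraries on either day, but single genes were: 2 of 8 rose and 1 fell at day 1, and 4 rose and 2 fell at day 3. Tff1 averaged 1.25 CPM in AA and 0.454 CPM in vehicle organoids at day 1, and 2.83 CPM in AA and 0.469 CPM in vehicle organoids at day 3, and Gkn1 averaged 0.55 CPM in AA and 0.173 CPM in vehicle organoids at day 1, and 1.31 CPM in AA and 0.0793 CPM in vehicle organoids at day 3. The part of other gastric transcripts in the Cldn18 result was not tested.

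Cldn23 (ENSMUSG00000055976.6), a claudin of gut surface epithelium, rose in all 5 comparisons with vehicle. At day 1 it had 11.2, 14.3 and 11.7 CPM in AA libraries, 16.9, 16.3 and 15.6 CPM in PGE2 libraries, and 5.07, 5.61 and 6.17 CPM in vehicle libraries. The groups did not overlap, and the rises were 2.20-fold with AA (log2 fold change 1.14 ± 0.12, adjusted p = 2.49e-09) and 2.90-fold with PGE2 (1.54 ± 0.12, adjusted p = 8.79e-13). Cldn23 at day 3 had 11.2, 11.7 and 11.7 CPM in AA libraries, 16.6, 13.8 and 14.2 CPM in PGE2 libraries, and 8.72, 7.79 and 8.06 CPM in vehicle libraries, again apart (AA 0.48 ± 0.12, adjusted p = 0.00104; PGE2 0.85 ± 0.11, adjusted p = 7.7e-08). Cldn23 at day 6 had 11.9, 11.6, 10.6 and 14.0 CPM in AA libraries and 7.91, 6.60, 7.49 and 7.75 CPM in vehicle libraries. Every AA library was higher (0.70 ± 0.11, adjusted p = 0.00057).

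Cldn12 (ENSMUSG00000046798.14), a claudin that lacks the usual tail motif for binding scaffold proteins, fell at day 1 in both treatments. It had 57.6, 60.1 and 61.0 CPM in AA libraries, 57.5, 55.3 and 59.7 CPM in PGE2 libraries, and 67.5, 67.6 and 74.0 CPM in vehicle libraries. All treated libraries lay below all vehicle libraries, at 0.855 times its level with AA (log2 fold change -0.23 ± 0.06, adjusted p = 0.00198) and 0.826 times with PGE2 (-0.28 ± 0.06, adjusted p = 0.00019). Cldn12 at day 3 had 60.2 to 66.8 CPM in AA, 69.1 to 71.7 CPM in PGE2 and 60.0 to 70.5 CPM in vehicle libraries, which overlapped (AA -0.06, 95% interval -0.18 to 0.07; PGE2 0.08, -0.04 to 0.20). Cldn12 at day 6 was 56.1 to 69.2 CPM in AA and 46.6 to 61.6 CPM in vehicle libraries (0.18, 0.00 to 0.37, adjusted p = 0.125).

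**Figure D3:**
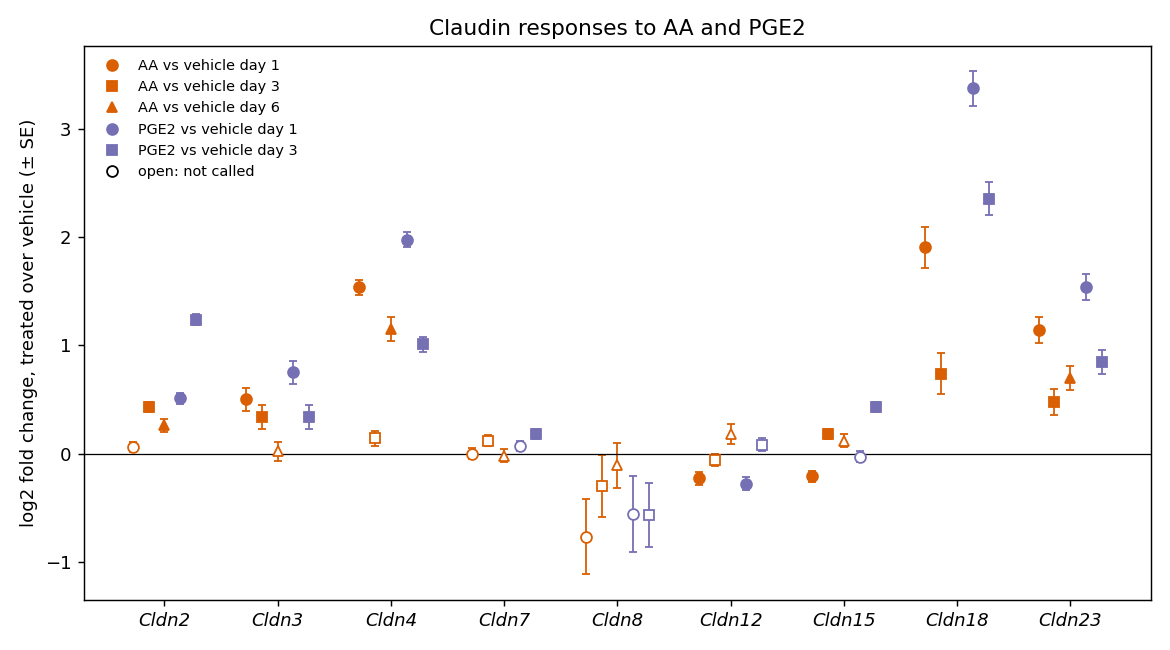
Log2 fold change of the 9 tested claudins, treated over vehicle, by treatment and day; filled symbols passed the test, open ones did not, and bars are SE. Cldn18 at day 1 reaches 3.38 with PGE2 and 1.91 with AA, while Cldn7 lies between -0.02 and 0.18 in the 5 comparisons.

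Set directly against each other, AA and PGE2 organoids differed in the same 5 claudins at days 1 and 3, at unequal doses of the agents. Cldn2, Cldn4, Cldn15, Cldn18 and Cldn23 were lower with AA than with PGE2, and 4 of 9 were not called, on each day. Over all genes 11.3% were higher and 16.5% lower with AA at day 1, and 18.1% and 20.3% at day 3. At day 1 the log2 differences were -1.46 ± 0.13 for Cldn18 (adjusted p = 1.3e-10), -0.45 ± 0.05 for Cldn2 (2.77e-08), -0.43 ± 0.07 for Cldn4 (2.8e-05), -0.40 ± 0.10 for Cldn23 (0.00254) and -0.18 ± 0.05 for Cldn15 (0.0062). At day 3 they were -1.62 ± 0.14 for Cldn18 (adjusted p = 7.61e-11), -0.88 ± 0.07 for Cldn4 (9.85e-10), -0.82 ± 0.05 for Cldn2 (1.01e-13), -0.36 ± 0.10 for Cldn23 (0.00514) and -0.25 ± 0.05 for Cldn15 (6.76e-05). The Cldn15 call at day 1 was lost without AA replicate 3 (-0.14, adjusted p = 0.0627), without PGE2 replicate 2 (-0.15, adjusted p = 0.0639) and when scaled by total counts (-0.11, adjusted p = 0.127).

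For the other tested claudins the interval of the difference between AA and PGE2 was as follows. Cldn3 had -0.25 (95% interval -0.49 to -0.01) at day 1 and 0.01 (-0.24 to 0.25) at day 3. Its day 1 value was not called in the fit of all 6 groups (adjusted p = 0.120), although every AA library lay below every PGE2 library, and it was called with DESeq2 (adjusted p = 0.0358) and in a fit of these groups alone (adjusted p = 2.25e-13). Cldn7 had -0.07 (-0.17 to 0.04) and -0.06 (-0.17 to 0.05). Its intervals were among the narrowest of the family on each day, as were those of Cldn2 and Cldn15. Cldn12 had 0.05 (-0.07 to 0.17) and -0.14 (-0.26 to -0.02, adjusted p = 0.0599), and the day 3 value was called when scaled by total counts (-0.18, adjusted p = 0.0249) or without AA day 3 replicate 2 (-0.16, adjusted p = 0.0464). Cldn8 had -0.21 (-1.01 to 0.58) and 0.28 (-0.35 to 0.91), the widest intervals of the family.

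Vehicle organoids themselves differed between days. At day 3 against day 1, 3 of 9 claudins were higher, 1 was lower and 5 were not called, while 19.8% of all genes were higher and 20.5% lower. Cldn4 was higher (log2 fold change 0.46 ± 0.07, adjusted p = 3.9e-05), as were Cldn23 (0.55 ± 0.13, adjusted p = 0.00106) and Cldn18 (0.74 ± 0.23, adjusted p = 0.0112), and Cldn2 was lower (-0.32 ± 0.05, adjusted p = 1.03e-05). The Cldn18 call was lost without vehicle day 3 replicate 3 (0.64, adjusted p = 0.0512). Other claudins were called under some alternatives: Cldn3 when scaled by total counts (0.29, adjusted p = 0.0181) or with only these groups in the fit (0.22, adjusted p = 0.0168), Cldn15 when scaled by total counts (0.15, adjusted p = 0.0279) or with a stricter filter (0.13, adjusted p = 0.0207), Cldn7 with no filter (-0.14, adjusted p = 0.0347) and Cldn8 without vehicle day 3 replicate 2 (0.77, adjusted p = 0.0478).

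The size of the responses was then compared between days, each against its own vehicle. The response to AA at day 3 minus that at day 1 was higher for 2 of 9 claudins, lower for 3 and not called for 4, beside 10% of all genes higher and 7.95% lower. Cldn4 responded less at day 3 (difference in log2 fold change -1.40 ± 0.10, adjusted p = 1.7e-09), and so did Cldn18 (-1.17 ± 0.28, adjusted p = 0.00301) and Cldn23 (-0.65 ± 0.17, adjusted p = 0.00543). Cldn15 (0.39 ± 0.07, adjusted p = 0.00011) and Cldn2 (0.37 ± 0.07, adjusted p = 0.000399) went the other way. With PGE2, 3 of 9 were higher, 3 lower and 3 not called, beside 12.6% of all genes higher and 11.6% lower. Cldn4 (-0.96 ± 0.10, adjusted p = 1.35e-07), Cldn18 (-1.01 ± 0.26, adjusted p = 0.00343) and Cldn23 (-0.69 ± 0.16, adjusted p = 0.00178) again responded less at day 3. The differences were positive for Cldn2 (0.74 ± 0.07, adjusted p = 3.06e-09), Cldn15 (0.47 ± 0.07, adjusted p = 3.98e-06) and Cldn12 (0.36 ± 0.08, adjusted p = 0.00146). For Cldn3 the difference with PGE2 was not called (-0.42 ± 0.16, adjusted p = 0.0807), and it was under 5 alternatives, among them DESeq2 (-0.43, adjusted p = 0.00946), scaling by total counts (-0.37, adjusted p = 0.0416) and a stricter filter on low counts (-0.46, adjusted p = 0.0351); the other 2 left out PGE2 day 3 replicate 1 (-0.52) or 2 (-0.29). Both sets of differences use the same vehicle libraries. For Cldn4, Cldn18 and Cldn23 vehicle organoids were also higher at day 3 than at day 1, as given above. For Cldn2 they were lower, at 340 CPM at day 1 and 272 CPM at day 3. Cldn2 averaged 354 CPM at day 1 and 366 CPM at day 3 with AA, and 483 and 644 CPM with PGE2.

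**Figure D4:**
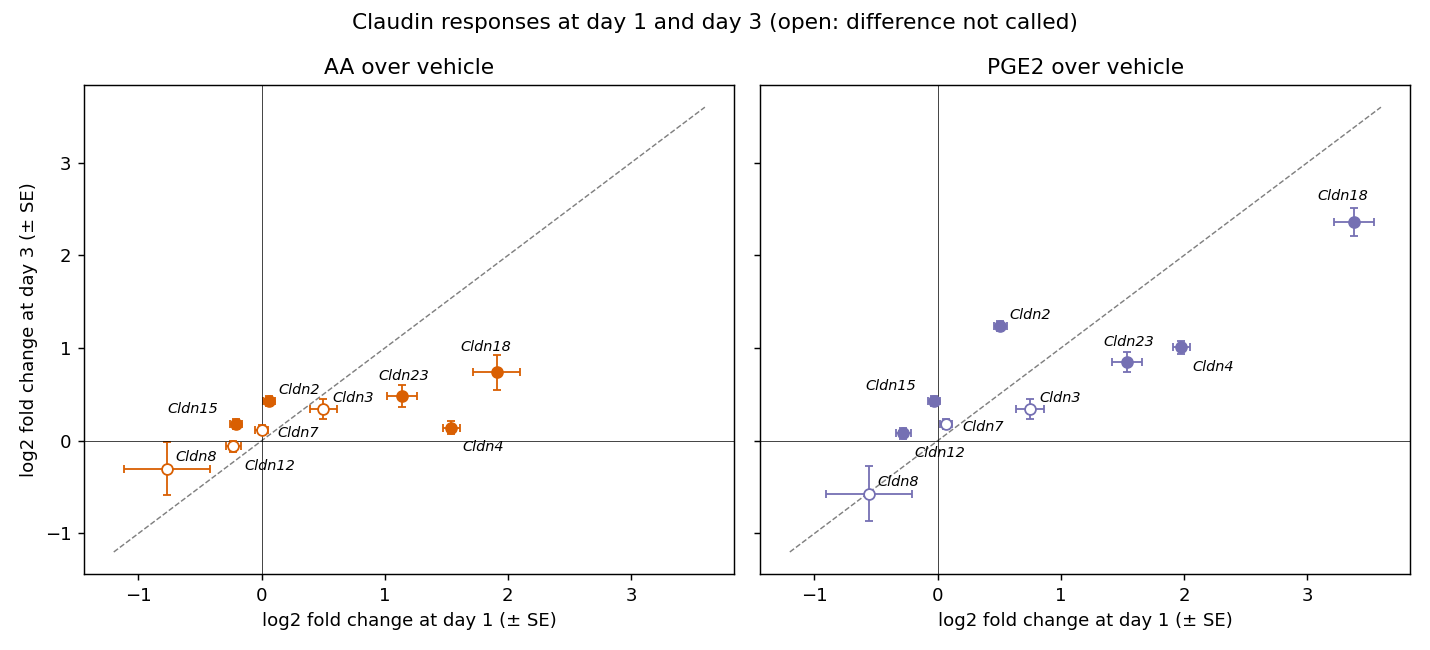
Log2 fold change over vehicle at day 1 (horizontal) and day 3 (vertical) of the 9 tested claudins, for AA (left) and PGE2 (right), with SE bars; the dashed line marks equal responses, and filled points are those whose difference between days passed the test. Cldn4, Cldn18 and Cldn23 lie under the line, and Cldn2 and Cldn15 above it, with either agent.

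From day 3 to day 6 the response to AA differed for 1 of 9 claudins in the joint fit of 26 libraries, and 8 were not called, beside 8.78% of all genes higher and 10.4% lower. Cldn18 is among the 8 although its day 6 counts were too few to test alone: it entered through the day 1 and 3 libraries, and its interval was wide (-0.36, -1.5 to 0.79). Cldn4 responded more at day 6 (difference 1.00 ± 0.14, adjusted p = 1.34e-05). Its log2 fold change with AA was 1.54, 0.14 and 1.15 at days 1, 3 and 6. The day 6 counts are a separate table, so day and any other difference between the tables cannot be told apart. A second claudin, Cldn2, was called without vehicle day 3 replicate 3 (-0.24, adjusted p = 0.0378). The responses of Cldn23 were 1.14, 0.48 and 0.70 over the same days, and the difference between days 3 and 6 was not called (0.20, 95% interval -0.12 to 0.52).

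Claudins work with other membrane proteins of the junction, with a cytoplasmic plaque that ties them to actin and with polarity proteins. Of 17 tested membrane partners, 12 rose and 5 were not called with AA at day 1, and 16 rose and 1 fell with PGE2. At day 3, 11 rose and 1 fell with AA and 15 rose with PGE2, and at day 6, 6 of 14 rose with AA. Over all genes, 19.5% rose and 22.2% fell with AA and 27.0% rose and 28.9% fell with PGE2 at day 1, 21.2% rose and 20.1% fell with AA and 28.9% rose and 30.1% fell with PGE2 at day 3, and 15.3% rose and 15.5% fell with AA at day 6, with median log2 fold changes of -0.04 to -0.01. The median log2 fold change of the membrane partners was 0.48 with AA and 0.78 with PGE2 at day 1, 0.45 and 0.61 at day 3, and 0.13 with AA at day 6. At days 1 and 3 the counts and medians include Jam2, Clmp and Ildr2. These averaged 0.124, 0.454 and 0.554 CPM in vehicle organoids at day 1, against 1.63, 1.75 and 2.55 CPM with PGE2. They passed the filter on low counts only through treated libraries, which favoured a rise. Ildr1, a protein of the corners where cells meet, had the smallest p at day 1 and averaged 94.6 CPM in AA, 142 CPM in PGE2 and 30.9 CPM in vehicle organoids (log2 fold change 1.61 ± 0.06 and 2.20 ± 0.06). Cxadr, the coxsackievirus and adenovirus receptor, rose by 0.84 and 1.12, and F11r, junctional adhesion molecule A, by 0.78 and 1.14 on the log2 scale. At day 3 Tmprss2, a membrane protease, rose by 0.55 ± 0.04 with AA and 1.18 ± 0.04 with PGE2, and Spint1, a protease inhibitor, by 0.66 ± 0.06 and 0.90 ± 0.06. At day 6 Cxadr (0.62 ± 0.08), F11r (0.41 ± 0.06), Ildr1 (0.77 ± 0.15) and Tmprss2 (0.29 ± 0.06) rose with AA.

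Plaque and polarity genes are read beside the same shares of all genes. Of 24 tested, 14 rose and 3 fell with AA and 16 rose and 4 fell with PGE2 at day 1, 13 rose and 3 fell with AA and 16 rose and 3 fell with PGE2 at day 3, and 9 of 23 rose and 1 fell with AA at day 6. Their medians were 0.35 and 0.51 at day 1, 0.18 and 0.48 at day 3 for AA and PGE2, and 0.19 with AA at day 6. At days 1 and 3 they include Magi2, at 0.399 CPM in vehicle and 1.09 CPM in PGE2 organoids at day 1. It passed the filter on low counts only through treated libraries. Tjp1, the scaffold ZO-1 to which claudin tails bind, averaged 305 CPM in AA, 422 CPM in PGE2 and 167 CPM in vehicle organoids at day 1 (log2 fold change 0.86 ± 0.05 and 1.33 ± 0.05). Amotl1, an angiomotin family scaffold, averaged 20.6 CPM in AA, 37.5 CPM in PGE2 and 4.25 CPM in vehicle organoids (2.27 ± 0.11 and 3.13 ± 0.10). Pard6b, a polarity protein, rose by 1.13 and 1.54, and Cgnl1, paracingulin, by 1.07 and 2.03. At day 6 Tjp1 (0.38 ± 0.05), Cgnl1 (0.81 ± 0.12), Pard6b (0.63 ± 0.11) and Mpp5 (0.48 ± 0.09), the polarity scaffold PALS1, rose with AA.

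Transcription factors known to act on claudin genes included members called in each direction, as did all genes in the shares given for the membrane partners. Of 15 tested, 4 rose and 8 fell with AA and 6 rose and 8 fell with PGE2 at day 1, 9 rose and 4 fell with AA and 5 rose and 5 fell with PGE2 at day 3, and 3 of 14 rose and 2 fell with AA at day 6. When libraries were scaled by total counts, the AA count at day 3 was 6 higher and 6 lower, and the PGE2 count at day 1 was 3 higher and 8 lower. Grhl3, an epithelial barrier factor, averaged 18.7 CPM in AA, 27.5 CPM in PGE2 and 6.51 CPM in vehicle organoids at day 1 (log2 fold change 1.52 ± 0.10 and 2.08 ± 0.10). Vdr, the vitamin D receptor, averaged 73.0 CPM in AA, 27.6 CPM in PGE2 and 135 CPM in vehicle organoids (-0.89 ± 0.08 and -2.29 ± 0.09). Klf5, a crypt factor, rose by 0.44 and 0.71, and Cdx1, an intestinal homeobox factor, had -0.48 ± 0.07 and -0.92 ± 0.07. At day 3 Hnf4g, an enterocyte factor, rose with AA (0.92 ± 0.06), and at day 6 it rose again (0.69 ± 0.07), as did Grhl3 (1.86 ± 0.30).

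**Figure D5:**
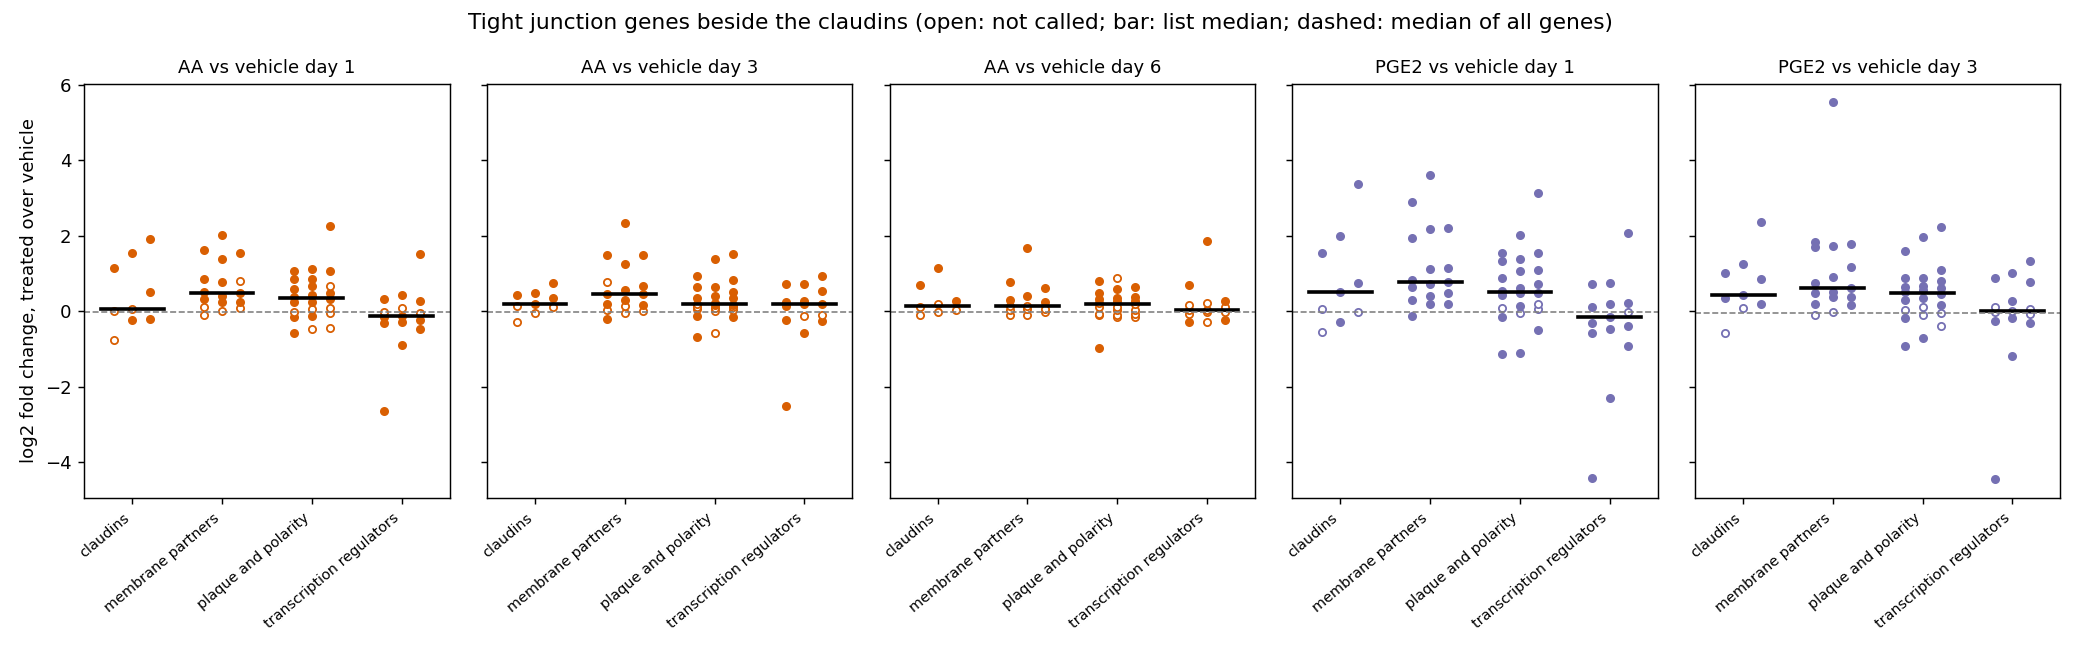
Log2 fold change, treated over vehicle, of the tested claudins, membrane partners, plaque and polarity genes and transcription regulators in 5 comparisons; filled points passed the test, black bars are list medians and the dashed line is the median of all genes tested. The membrane partners have medians of 0.48, 0.45 and 0.13 with AA at days 1, 3 and 6, and of 0.78 and 0.61 with PGE2 at days 1 and 3.

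Across the 18 libraries of days 1 and 3, members fell into patterns, given as a description because these libraries share treatments and days. On log2 CPM, Cldn18 and Cldn23 had a Pearson r of 0.94, Cldn4 and Cldn18 of 0.93, and Cldn4 and Cldn23 of 0.90, whereas Cldn4 and Cldn15 had -0.06. Cldn3 and Cldn4, the adjacent genes, had 0.79. The genes most like Cldn4 were Lamb3, a laminin chain (r = 0.989), Klf6, a transcription factor (0.987), and Trib1, a pseudokinase (0.983). Those most like Cldn18 were Krt23, a keratin (0.987), Pls3, an actin bundler (0.981), and Flii (0.980), and those most like Cldn23 were Anxa1, an annexin (0.977), Dusp3, a phosphatase (0.976), and Arhgap40 (0.976). Cldn2 was most like Cystm1 (0.975), Ccnd2, cyclin D2 (0.964), and Ccng1, cyclin G1 (0.963), and Cldn15 was most like Dcxr (0.973), Tmbim6 (0.971) and Oas1f (0.970).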

How the data were processed

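RNA from the 26 libraries was sequenced, and the authors deposited raw counts of reads per gene, with day 6 in a table of its own. The tools listed, per the submitters' processing notes, are STAR, cutadapt, limma 3.46 and DESeq2, without roles. How reads were counted, and whether by strand, is not given in those sources. The notes name a human genome build while the identifiers are mouse, so the tables' own genome positions are not used. Of 55385 identifiers, 55144 (99.6%) matched a symbol.

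Tests on the deposited counts used edgeR 4.0.16 (R 4.3.3): filterByExpr by group, TMM scaling, a robust quasi-likelihood fit with 1 mean per group, and Benjamini-Hochberg adjustment over all genes tested, with a threshold of 0.05. The fits of the tables held 18 libraries (14850 genes tested, residual df 12) and 8 libraries (14663 genes, residual df 6), and a joint fit for the day 6 minus day 3 response held 26 (15504 genes, residual df 18). SE came from the F statistic, and CPM used no prior count. Exon lengths were unions of GENCODE M21 exons. Correlations used log2 CPM computed here from the deposited counts with a prior count of 2. The scripts were tested on simulated data.

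The claudins and all lists were chosen with earlier results of these data known. All 10 claudins are described; from each partner or regulator list, up to 4 genes with the smallest p in a comparison with vehicle of the day are named (1 membrane partner that this rule picks is not reported here by name), and for each claudin the 3 genes with the highest r. Alternatives were DESeq2 1.42.0, other scalings, filters and samples, a replicate block, and each library left out. Replicates differed beyond counting noise in all 30 pairs (chi-square per degree of freedom 1.24 to 25.2).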

Additional observations from a re-analysis of the deposited data

Results flagged for a closer look

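In 3 of 20 sets of 4 day 6 values checked, a library stood apart from its group, judged by its gap relative to the range of the 4 values. Chance does so in about 1 of 20. Such a gap can be small in CPM, and the groups of days 1 and 3 were not checked. AA replicate 4 had 360 CPM of Cldn7, against 347 to 348 CPM in the other AA libraries. AA replicate 1 had 2.01 CPM of Cldn8, against 1.62 to 1.65 CPM. Vehicle replicate 4 had 233 CPM of Cldn15, against 196 to 202 CPM in the other vehicle libraries.

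Responses that differed between days, by the test of the difference itself, are given as log2 values. For AA at day 3 minus day 1, the difference was 0.37 for Cldn2, -1.40 for Cldn4, 0.39 for Cldn15, -1.17 for Cldn18 and -0.65 for Cldn23. For PGE2 at day 3 minus day 1, it was 0.74 for Cldn2, -0.96 for Cldn4, 0.36 for Cldn12, 0.47 for Cldn15, -1.01 for Cldn18 and -0.69 for Cldn23. For AA at day 6 minus day 3, it was 1.00 for Cldn4. For Cldn15 with AA, the response was -0.21 at day 1 and 0.18 at day 3, both called.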

How the results depend on the processing

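Of 98 claudin fold changes, 53 were called, and over 1549 alternative values 1481 kept direction and side of the threshold, 15 lost a call, 28 gained one and 25 changed sign. All sign changes were of uncalled values; 5 called results lost their call somewhere, each named in the report, and the cause was not tested. Scaled by total counts, signs changed for Cldn7 with AA (-0.01) and PGE2 (-0.01) at day 1 and AA against PGE2 at day 1 (0.00), Cldn3 for AA against PGE2 at day 3 (-0.03) and Cldn8 for the PGE2 response at day 3 minus day 1 (0.04). With each library left out in turn, the values that changed sign ran from -0.03 to 0.04 for Cldn7 with AA at day 1, -0.05 to 0.03 for Cldn7 and -0.04 to 0.13 for Cldn3 with AA at day 6, -0.12 to 0.01 for Cldn12 with AA at day 3 and -0.11 to 0.11 for Cldn3 in AA against PGE2 at day 3. For Cldn8 they ran from -0.46 to 0.00 and -0.01 to 0.44 in AA against PGE2 at days 1 and 3, -0.25 to 0.20 in the PGE2 response and -0.06 to 0.51 in the AA response at day 6 minus day 3. For that last comparison 1 to 2 claudins were called with a library left out, and 1812 genes in place of 2969 with only its own groups in the fit. Whether replicate numbers pair the samples is not stated. Deviations of same-numbered libraries had r of -0.13 to 0.27 (22 pairs, 4 above 0.1). Differently numbered libraries reached 0.43 and -0.41 at day 6, so these values cannot settle whether same-numbered libraries share a culture or batch. A replicate block lost 0 of the claudin calls and gained 1, Cldn7 with AA at day 3 (0.12, adjusted p = 0.0492), and gave 0.02 for Cldn8 in the PGE2 response. Scaling by total counts moved the share of all called genes that were higher to 38.7% against 51.3% for AA at day 3, 59.5% against 40.6% for AA over PGE2 at day 1, 64.6% against 49.2% for vehicle at day 3 over day 1, 41.2% against 55.7% and 63.5% against 52.2% for the AA and PGE2 responses at day 3 minus day 1, and 63.1% against 45.9% for AA at day 6 minus day 3. That share also moved to 39.5% against 48.3% for PGE2 at day 1 and 38.3% against 47.2% for AA over PGE2 at day 3. It moved less in the comparisons not listed. Low counts limit Cldn1, Cldn8 and, at day 6, Cldn18.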

Other observations

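Of 29 further claudin family genes listed, 26 were in the tables and 2 passed the filter at days 1 and 3, Cldn6 and Cldnd1. Cldnd1, a claudin domain protein, averaged 56.3 CPM in AA, 70.6 CPM in PGE2 and 44.5 CPM in vehicle organoids at day 1, and rose with AA (log2 fold change 0.34 ± 0.06, adjusted p = 1.49e-05) and PGE2 (0.67 ± 0.06, adjusted p = 1.78e-11). At day 3 it averaged 49.0 CPM in AA, 48.7 CPM in PGE2 and 41.7 CPM in vehicle organoids, with rises of 0.23 ± 0.06 and 0.22 ± 0.06. Cldn6, known from embryonic epithelium, averaged 0.739 CPM in AA, 1.77 CPM in PGE2 and 1.01 CPM in vehicle organoids at day 3, and the rise with PGE2 was called (0.77 ± 0.31, adjusted p = 0.0332) on at most 29 counts per library. At day 6 Cldnd1 was the only one of them tested and was not called with AA (0.16, adjusted p = 0.0813).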
